A study of Homo sapiens with 9 samples.

Results

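The genes described here are 46 regulators of NF-kB, chemokines, inflammatory cytokines and related NF-kB-inducible genes, named in a list and found on the array by gene symbol. Of the 20045 genes that the array's probe table names through a probe for 1 gene, 44 were members, measured by 65 probes. No probe of BIRC3 or CSF2 was found in that table. After a filter on dim probes, 39 of the 46 members were tested among 12438 genes. TLR2, CSF3, TNF, LTB and C3 had probes but did not pass the filter.

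The RNA came from MDA-MB231, a long-established line from a human breast cancer with mesenchymal character, transduced with a retrovirus and selected in puromycin, a treatment that all groups shared. The 3 groups were empty vector, RAI2 overexpression and overexpression of a form labelled RAI2-4A, each on 3 single-colour Illumina bead arrays. RAI2 (retinoic acid induced 2) is reported to bind the CtBP transcriptional corepressors, and the meaning of 4A is not given. Nor do the labels state whether replicates were separate transductions or cultures, or that a clone was picked. The p-values therefore cover the spread among these arrays, which may be technical.

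NF-kB is a family of dimeric transcription factors built from the products of NFKB1, NFKB2, REL, RELA and RELB. Inhibitor proteins hold the dimers in the cytoplasm until a kinase complex, switched on by cytokine and Toll-like receptors, marks the inhibitors for destruction. The dimers then bind decameric DNA sites and induce chemokines, cytokines, acute phase proteins and, as feedback, their own inhibitors, and MDA-MB231 cells are known for high basal NF-kB activity.

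Of the 46 members, 35 had a promoter in the RefSeq table used here (GRCh38.p14), which gives 250 bases before to 50 bases after each gene's start. RELB, NFKBIE, IER3, RIPK2, CCL2, CCL5, LIF, CSF3, SAA1, SAA2 and C3 had none there. The promoters of CD14, CD83, IL32 and PTGS2 are printed because, among members with a promoter in the table, these 4 had the lowest p-values in RAI2 against vector. Capitals mark matches, on either strand, to the NF-kB consensus decamer or to the AP-1 motif TGANTCA, and overlapping matches are capitalised as 1 run. CD14 (chr5:140633126-140633425, minus strand) held an AP-1 match from -223 to -217, CD83 (chr6:14117006-14117305, plus strand) held neither motif, IL32 (chr16:3065153-3065452, plus strand) held 2 overlapping NF-kB matches from -99 to -89, and PTGS2 (chr1:186680374-186680673, minus strand) held neither.
CD14: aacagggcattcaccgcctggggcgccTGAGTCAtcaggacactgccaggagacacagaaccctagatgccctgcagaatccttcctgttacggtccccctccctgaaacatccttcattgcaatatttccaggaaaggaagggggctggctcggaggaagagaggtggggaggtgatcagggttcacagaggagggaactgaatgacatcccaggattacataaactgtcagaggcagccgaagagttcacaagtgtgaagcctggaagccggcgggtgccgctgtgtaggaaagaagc
CD83: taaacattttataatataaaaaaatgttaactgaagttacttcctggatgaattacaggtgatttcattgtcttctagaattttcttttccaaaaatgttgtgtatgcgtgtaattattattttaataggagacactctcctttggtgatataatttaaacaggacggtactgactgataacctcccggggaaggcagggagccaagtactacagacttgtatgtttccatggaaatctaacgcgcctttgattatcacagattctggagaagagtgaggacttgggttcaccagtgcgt
IL32: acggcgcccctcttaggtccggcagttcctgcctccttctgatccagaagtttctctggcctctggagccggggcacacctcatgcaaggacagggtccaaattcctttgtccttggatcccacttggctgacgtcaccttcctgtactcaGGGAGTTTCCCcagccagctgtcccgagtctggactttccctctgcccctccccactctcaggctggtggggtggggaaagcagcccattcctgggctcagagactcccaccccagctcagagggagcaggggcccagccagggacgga
PTGS2: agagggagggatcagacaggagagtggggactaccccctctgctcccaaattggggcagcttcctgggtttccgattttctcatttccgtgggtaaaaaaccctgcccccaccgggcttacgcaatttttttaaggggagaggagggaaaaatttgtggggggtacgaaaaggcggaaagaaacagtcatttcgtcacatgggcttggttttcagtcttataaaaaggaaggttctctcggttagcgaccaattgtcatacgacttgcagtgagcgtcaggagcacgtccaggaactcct

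The NF-kB decamer was found in 16 of the 35 member promoters (45.7%) and in 11.3% of the 35116 RefSeq promoters of the same length. The members had been listed as NF-kB genes, so this share describes the list. Matches on the gene's own strand in the tested members, other than IL32, are shown for comparison with the values given later for these genes, each read 5′ to 3′. A match is a description of letters and not a binding site.
NFKB1, from -49: GGGAATTTCC
REL, from -47: GGGAAATTCC
NFKBIZ, from -223: GGGAATTTCC
BCL3, from 3: GGGAAGTCCC
CXCL1, from -79: GGGAATTTCC
CXCL2, from -78: GGGAATTTCC
CXCL3, from -79: GGGAATTTCC
IL6, from -73: GGGATTTTCC
CFB, from -112: GGGGCCCTCC
VCAM1, from -62: GGGATTTCCC
The same decamer stood at nearly the same distance from the start in CXCL1, CXCL2 and CXCL3. The AP-1 motif was found in the promoters of CD14, CXCL8, IL1A and IL11, 4 of 35, and in 7.71% of all promoters.

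Each array had 20030 to 22678 probes above background, and the thresholds for calling a probe above background were intensities of 99.8 to 104. RAI2 itself, measured by 1 probe, was not above background on the vector arrays. It read 559 to 632 on the RAI2 arrays and 955 to 1158 on the RAI2-4A arrays, so the RAI2-4A arrays carried the higher RAI2 signal, and this difference runs beside every comparison of the 2 forms. Of 8 markers expected in MDA-MB231, 7 (VIM, CD44, EGFR, AXL, CAV1, LGALS1 and S100A4) were above background on all arrays. Of the 6 luminal markers expected to be absent, ESR1 and FOXA1 were above background on none. KRT8 and ERBB3 were above on all arrays, and GATA3 and CDH1, both dim, on 8 of 9. A set of 3 arrays stood apart, namely RAI2-4A replicate 2, RAI2 replicate 2 and vector replicate 1. Across genes, the residuals of vector replicate 1 correlated at 0.483 with those of RAI2 replicate 2 and at 0.538 with those of RAI2-4A replicate 2. Calls of members that change without these 3 arrays are given with both values.

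Differences below are on the log2 scale after background correction with an offset, which understates changes of dim probes. Per-array values are deposited intensities, listed in the order of replicates 1, 2 and 3. In whole-culture RNA, fewer cells that express a gene and less RNA per cell cannot be told apart. The question of the first comparison was how RAI2 overexpression changed these genes. In RAI2 cells CCL2 and CD14 rose, and the other 37 tested members did not pass the threshold of an adjusted p of 0.05 in limma. The 2 members are 5.13% of the 39 tested, and 0.418% of all tested genes passed, 0.322% upward and 0.0965% downward. At an unadjusted p under 0.05 there were 10 members (25.6%), higher in RAI2 in each case, against 5.9% of all genes (3.89% higher). The arrays did not overlap, with RAI2 higher, for 13 members (33.3%) against 6.26% of all genes, and with RAI2 lower for 0 members against 3.81%. The difference was above 0 for 34 members (87.2%) against 55.3% of all genes. The median difference over tested members was 0.16, with a range of -0.34 to 1.18, and that over all tested genes was 0.02. CCL2, IL32 and IL1B passed the filter with no vector array above background, so a difference of theirs from vector could only be upward, and these counts describe the members that passed and support nothing further.

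**Figure D1:**
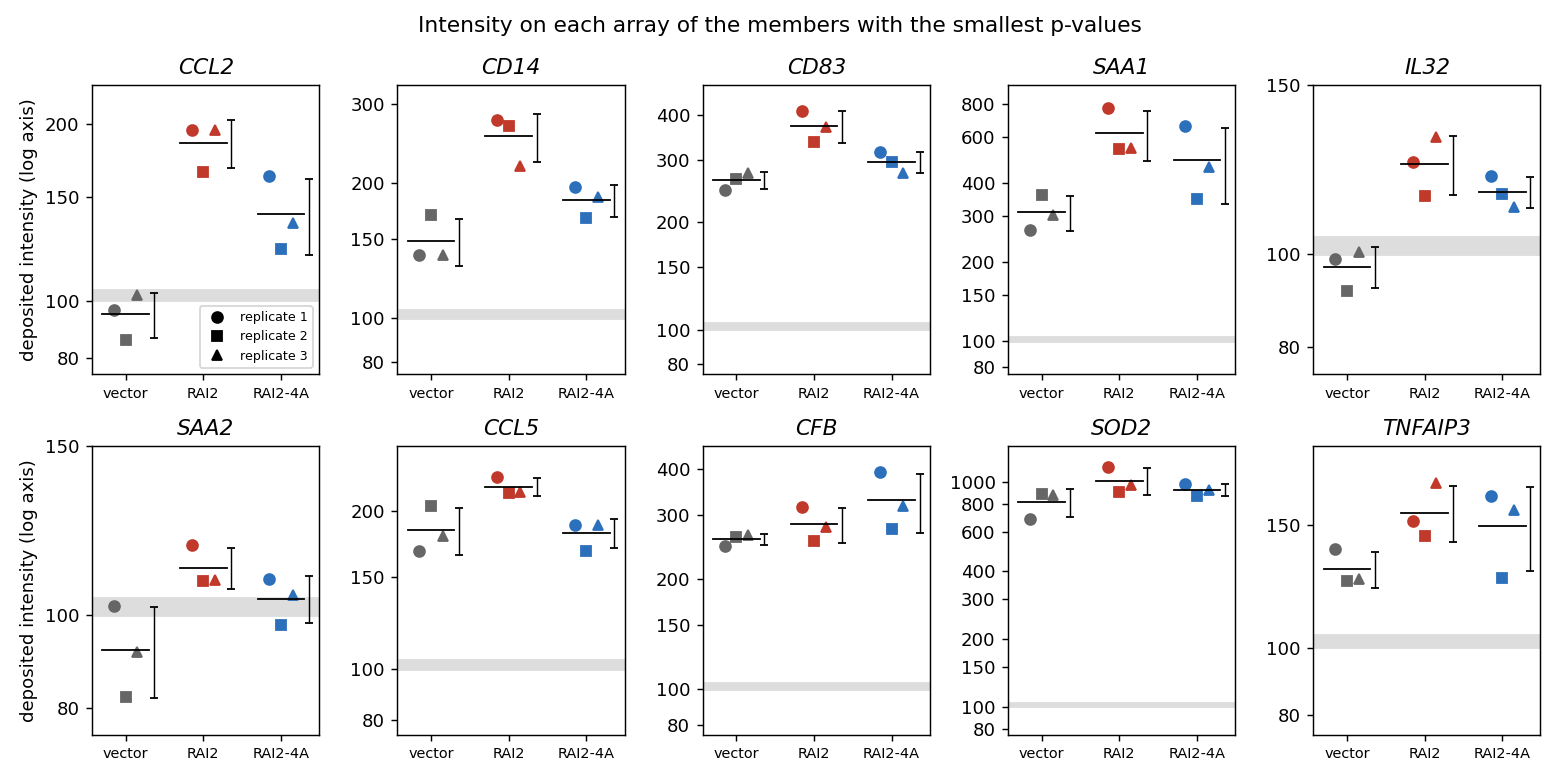
Deposited intensity (log axis) on each array for CCL2, CD14 and the 8 further members with the smallest p-values and no overlap between groups in a comparison with vector. Symbols are replicates, horizontal lines are means and vertical bars are SDs of 3 arrays, and the grey band is the range of background thresholds (99.8 to 104). CCL2 lies in or below the band on the vector arrays and at 166 to 196 on the RAI2 arrays.

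**Figure D2:**
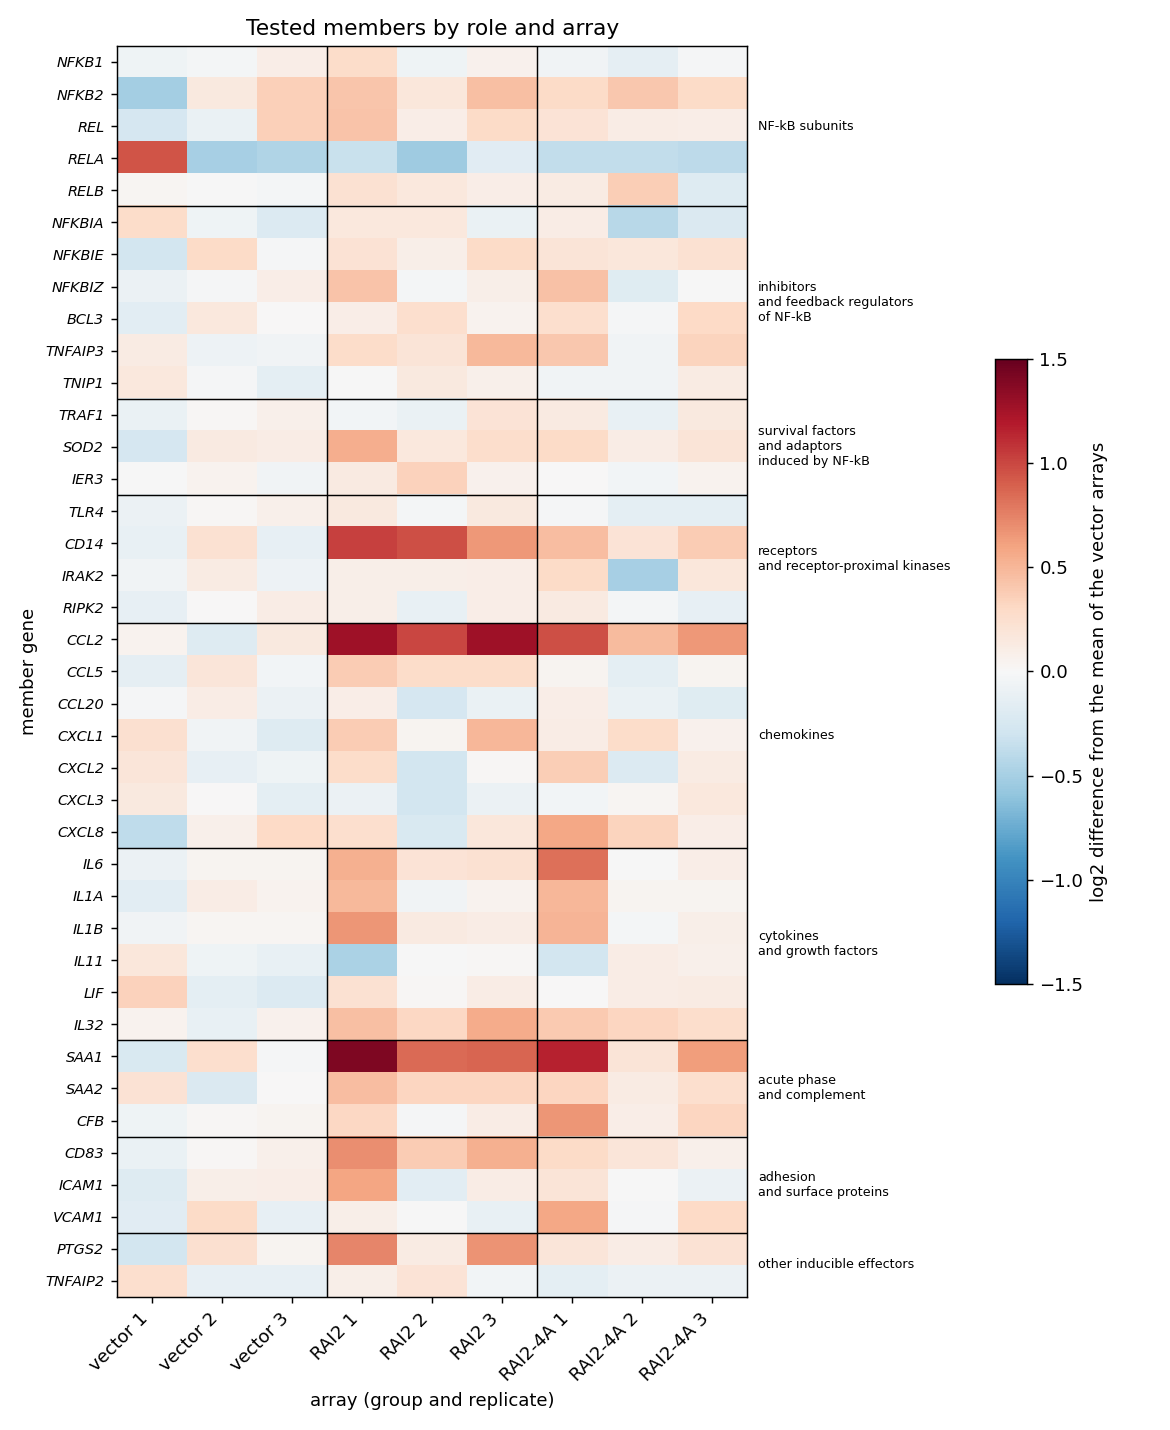
Log2 difference of each tested member from the mean of the vector arrays, one row per gene grouped by role and one column per array. The darkest red cells are in the rows of CCL2, CD14 and SAA1, and the column of RAI2 replicate 1 has a median deviation of 0.27 over the 39 members.

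Chemokines are secreted proteins that attract leukocytes, and 1 of the 7 rose in RAI2 cells. CCL2, which attracts monocytes, had intensities of 96.5, 85.8 and 102 on the vector arrays, 196, 166 and 196 on the RAI2 arrays and 163, 122 and 135 on the RAI2-4A arrays. No vector array exceeded its background threshold, all RAI2 and RAI2-4A arrays did, and the 3 groups did not overlap. CCL2 rose in RAI2 cells by 1.18 (SE 0.14, n = 3 per group, limma adjusted p = 0.00179, 95% interval 0.87 to 1.48). Because the vector arrays give only an upper limit for its level, the fold is also given as a lower bound, at least 1.81 on the deposited intensities and at least 2.03 after background correction. Further lower bounds are on the deposited intensities.

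CCL5, which attracts T cells and monocytes, had intensities of 168, 204 and 179 on the vector arrays, 232, 217 and 218 on the RAI2 arrays and 188, 168 and 188 on the RAI2-4A arrays. All RAI2 arrays lay above all arrays of both other groups, and RAI2-4A overlapped vector. Its difference of 0.31 (SE 0.11, limma adjusted p = 0.592) did not pass, and the second probe gave 0.25 with a like order of groups. CXCL8, the neutrophil attractant and the brightest chemokine probe, had intensities of 567, 769.7 and 894 on the vector arrays, 866, 626 and 817 on the RAI2 arrays and 1081, 913 and 779.5 on the RAI2-4A arrays, and the groups overlapped. Its difference of 0.06 between RAI2 and vector turned to -0.02 with array weights.

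The remaining chemokines were CXCL1, CXCL2 and CXCL3, neutrophil attractants, and CCL20, which attracts cells bearing CCR6. They were dim, with intensities of at most 148, and CXCL3 was above background on no RAI2 array. Differences between RAI2 and vector were 0.30 for CXCL1, 0.00 for CXCL2, -0.15 for CXCL3 and -0.08 for CCL20, and none passed. The values of CXCL3 in RAI2 are upper limits, so its difference gives no size.

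Among receptors and receptor-proximal kinases, 4 of 5 were tested and 1 rose. CD14, the coreceptor that hands bacterial lipopolysaccharide to TLR4, had intensities of 139, 169.7 and 138 on the vector arrays, 277, 268 and 219 on the RAI2 arrays and 196, 167 and 186 on the RAI2-4A arrays. The RAI2 arrays lay above all the others, and the RAI2-4A arrays overlapped the vector arrays only through RAI2-4A replicate 2, which read below vector replicate 2. CD14 rose in RAI2 cells by 0.88 (SE 0.14, n = 3 per group, limma adjusted p = 0.0103, 95% interval 0.59 to 1.17). A second, dimmer CD14 probe read 88.0, 103 and 90.7 with vector, 128, 126 and 109.8 with RAI2 and 106, 88.0 and 97.9 with RAI2-4A. It was above background on no vector array, which gives a fold of at least 1.18 for RAI2, and it passed the filter through the RAI2 arrays and 1 RAI2-4A array. The fitted difference of this probe between RAI2 and vector was 0.46. With every probe tested on its own it did not pass (limma adjusted p = 0.477). The CD14 call ended when RAI2 replicate 1 (adjusted p = 0.0790 in limma), RAI2 replicate 2 (0.0699) or vector replicate 3 (0.0553) was left out, and when probes of a gene were averaged (0.0665).

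CD14 is also a monocyte marker, so other leukocyte markers are given beside it. Of 12 macrophage and leukocyte markers with a probe, PTPRC, CD163, LYZ, TYROBP, FCER1G and CD3E were above background on no array. CD68, CSF1R, AIF1 and HLA-DRA were above on all arrays. The summed intensity of the 12 markers was 2789 to 3007 with vector, 3033 to 3099 with RAI2 and 3221 to 3469 with RAI2-4A. CD68 made up the largest part of these sums. HLA-DRA, a class II antigen presentation chain, differed from vector by 0.88 with RAI2 (limma adjusted p = 0.319) and by 1.00 with RAI2-4A (limma adjusted p = 0.514), and its 3 values with RAI2 lay above those with vector. The part of these markers in the CD14 result was not tested.

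The other receptor-side members lay close to 0. RIPK2, the kinase downstream of NOD receptors and the brightest of this role, had intensities of 824, 903 and 970.1 on the vector arrays, 949, 835 and 961 on the RAI2 arrays and 982, 879 and 823 on the RAI2-4A arrays, and the groups overlapped. Its difference was 0.03 and changed sign without RAI2 replicate 1. TLR4, the receptor for lipopolysaccharide, differed by 0.09 and IRAK2, a kinase of the interleukin-1 and Toll-like receptor pathway, by 0.09. TLR2 was not above background on any array.

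Acute phase and complement genes had all 3 tested members higher in RAI2 than in vector by their group means, and none passed. SAA1, an acute phase apolipoprotein, had intensities of 266, 361 and 303 on the vector arrays, 774, 536 and 544 on the RAI2 arrays and 657, 348 and 461 on the RAI2-4A arrays. Each RAI2 array lay above each vector array, and RAI2-4A overlapped both. SAA1 differed between RAI2 and vector by 1.04 (SE 0.22, limma adjusted p = 0.0713). The adjusted p in limma was 0.0314 without the 3 arrays that stood apart, 0.395 without RAI2 replicate 1 and 0.252 with probes averaged. SAA1 did not pass in 17 of 23 alternatives. Its further probes gave 0.41 and 0.13, so the size of the SAA1 difference depends on the probe. SAA1 and SAA2 are near-identical genes whose probes may share target sequence, and the values for either are uncertain for that reason.

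SAA2 was close to background, with intensities of 102, 82.2 and 91.5 on the vector arrays, 118, 108 and 109 on the RAI2 arrays and 109, 97.6 and 105 on the RAI2-4A arrays. RAI2 lay above vector on all arrays, at a difference of 0.37 (SE 0.12, limma adjusted p = 0.474). CFB, complement factor B of the alternative pathway, had intensities of 248, 261 and 265 on the vector arrays, 316, 255 and 278 on the RAI2 arrays and 394, 276 and 317 on the RAI2-4A arrays. Here the RAI2-4A arrays, not the RAI2 arrays, were clear of the vector arrays. CFB differed by 0.14 between RAI2 and vector and by 0.36 (SE 0.14, limma adjusted p = 0.994) between RAI2-4A and vector. Complement C3 was not above background on any array.

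Of the 10 cytokines and growth factors, 6 were tested and none passed. IL32, a proinflammatory cytokine made by lymphocytes and epithelial cells, had intensities of 98.9, 91.6 and 100.4 on the vector arrays, 125, 115 and 132 on the RAI2 arrays and 120.5, 116 and 112 on the RAI2-4A arrays. Neither RAI2 nor RAI2-4A overlapped vector, and on this probe no vector array was above background. The probe's fold for RAI2 over vector is at least 1.21 (limma adjusted p = 0.140), and its fitted difference was 0.44. With the background set at each array's mode the fitted difference was 0.98 and passed (limma adjusted p = 0.0325). In 20 of 22 alternatives IL32 did not pass, and its adjusted p in limma reached 0.622. Its second probe, above background on 1 vector array, gave 0.41.

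IL6, which drives acute phase responses and STAT3 signalling, had intensities of 379, 411 and 413 on the vector arrays, 570.3, 459.7 and 468 on the RAI2 arrays and 696, 399 and 427 on the RAI2-4A arrays. The RAI2 arrays lay above the vector arrays, and the highest value of all was RAI2-4A replicate 1. The difference of 0.33 between RAI2 and vector (SE 0.18, limma adjusted p = 0.973) did not pass. Of the ligands of the interleukin-1 receptor, IL1A differed by 0.16. IL1B, above background on 2 RAI2 arrays and no vector array, differed by 0.30 (95% interval -0.05 to 0.65, limma adjusted p = 0.962). Its RAI2 arrays read 138, 102 and 101, and its group means differed by at least 1.1-fold. LIF, a cytokine of the interleukin-6 family, differed by 0.12 and IL11, of the same family, by -0.15. The 3 probes of CSF3 and the probe of TNF were above background on no array, and a probe of LTB was above on 2 of 9.

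CD83, a surface glycoprotein of activated dendritic cells and lymphocytes, had intensities of 247, 265 and 276 on the vector arrays, 412, 336 and 371 on the RAI2 arrays and 315, 295 and 276 on the RAI2-4A arrays. The RAI2 arrays lay above all arrays of both other groups, and RAI2-4A replicate 3 lay within the vector range. CD83 differed between RAI2 and vector by 0.54 (SE 0.11, limma adjusted p = 0.0688), short of the threshold. The second CD83 probe read 202, 156 and 155 with vector, 223, 208 and 214 with RAI2 and 182, 184 and 173 with RAI2-4A, a difference of 0.39, and there too the RAI2 arrays were the highest. ICAM1 and VCAM1, adhesion receptors for leukocyte integrins, differed by 0.18 and -0.01. The tested VCAM1 probe was above background on 1 vector array and no RAI2 array, so its difference gives no size.

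PTGS2, the inducible cyclooxygenase, had intensities of 142, 193 and 171 on the vector arrays, 262, 179 and 252 on the RAI2 arrays and 186, 179 and 189.9 on the RAI2-4A arrays. RAI2 replicates 1 and 3 were the highest, and RAI2 replicate 2 lay within the vector range. The difference was 0.51 (SE 0.16, limma adjusted p = 0.448), and the second probe, on which RAI2 did not overlap vector, gave 0.36. TNFAIP2, induced by tumour necrosis factor, differed by 0.09.

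None of the 3 tested survival factors and adaptors induced by NF-kB passed. SOD2, the mitochondrial superoxide dismutase, had intensities of 681, 883 and 872 on the vector arrays, 1164, 898 and 964 on the RAI2 arrays and 979.8, 867 and 919 on the RAI2-4A arrays. RAI2 lay above vector on all arrays, with RAI2 replicate 2 close to vector replicate 2, at a difference of 0.32 (SE 0.13, limma adjusted p = 0.756), while a second, dimmer probe gave 0.01. With 1 array left out the SOD2 difference fell as low as 0.20. IER3, a stress-induced survival factor, had intensities of 8429, 8802 and 8164 on the vector arrays, 9287, 10730 and 8845 on the RAI2 arrays and 8527, 8196 and 8779 on the RAI2-4A arrays. RAI2 lay above vector without overlap, at a difference of 0.18 that did not pass. Leaving out the 3 arrays noted as standing apart took it to 0.097. TRAF1, an adaptor of tumour necrosis factor receptors, differed by 0.02.

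All 6 inhibitors and feedback regulators were higher in RAI2 than in vector by their group means, at 0.07 to 0.32, none passed, and the differences of NFKBIA, BCL3 and TNIP1 turned sign in at least 1 alternative. TNFAIP3, the ubiquitin-editing enzyme that shuts off NF-kB signalling, had intensities of 138, 124 and 126 on the vector arrays, 152, 144 and 172 on the RAI2 arrays and 165, 126 and 157 on the RAI2-4A arrays. RAI2 lay above vector on all arrays and RAI2-4A overlapped vector through replicate 2. Its difference was 0.32 (SE 0.13, limma adjusted p = 0.767). NFKBIA, the inhibitor that retains RELA dimers in the cytoplasm, had intensities of 2004, 1595 and 1443 on the vector arrays, 1861, 1849 and 1550 on the RAI2 arrays and 1798, 1253 and 1438 on the RAI2-4A arrays. The groups overlapped, the difference was 0.07, and it changed sign without vector replicate 3. NFKBIE, a related inhibitor, differed by 0.20, the nuclear regulators NFKBIZ and BCL3 by 0.16 and 0.14, and TNIP1, a partner of TNFAIP3, by 0.07.

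The NF-kB subunits did not pass in any comparison. NFKB1, the brightest subunit probe, had intensities of 1804, 1846 and 2018 on the vector arrays, 2274, 1802 and 1973 on the RAI2 arrays and 1819, 1727 and 1863 on the RAI2-4A arrays, and the groups overlapped. Its difference of 0.09 between RAI2 and vector fell to -0.0013 without RAI2 replicate 1. RELA read 236 on vector replicate 1 and 99.8 to 122 on the other 8 arrays, and NFKB2 read 256 on that array and 391 to 475 on the others. The RELA probe was near background, above it on 7 of 9 arrays. Between RAI2 and vector RELA differed by -0.34 and NFKB2 by 0.34. Without vector replicate 1 these differences were 0.13 and 0.091, so that of RELA changed sign. REL differed by 0.27 on a probe near background, above it on 1 vector array, 3 RAI2 arrays and 1 RAI2-4A array, so the size is uncertain. A second REL probe, above background on 2 of 9 arrays and not kept, had means of 94.1 with vector and 86.6 with RAI2. RELB, the subunit of the noncanonical pathway, differed by 0.16.

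**Figure D3:**
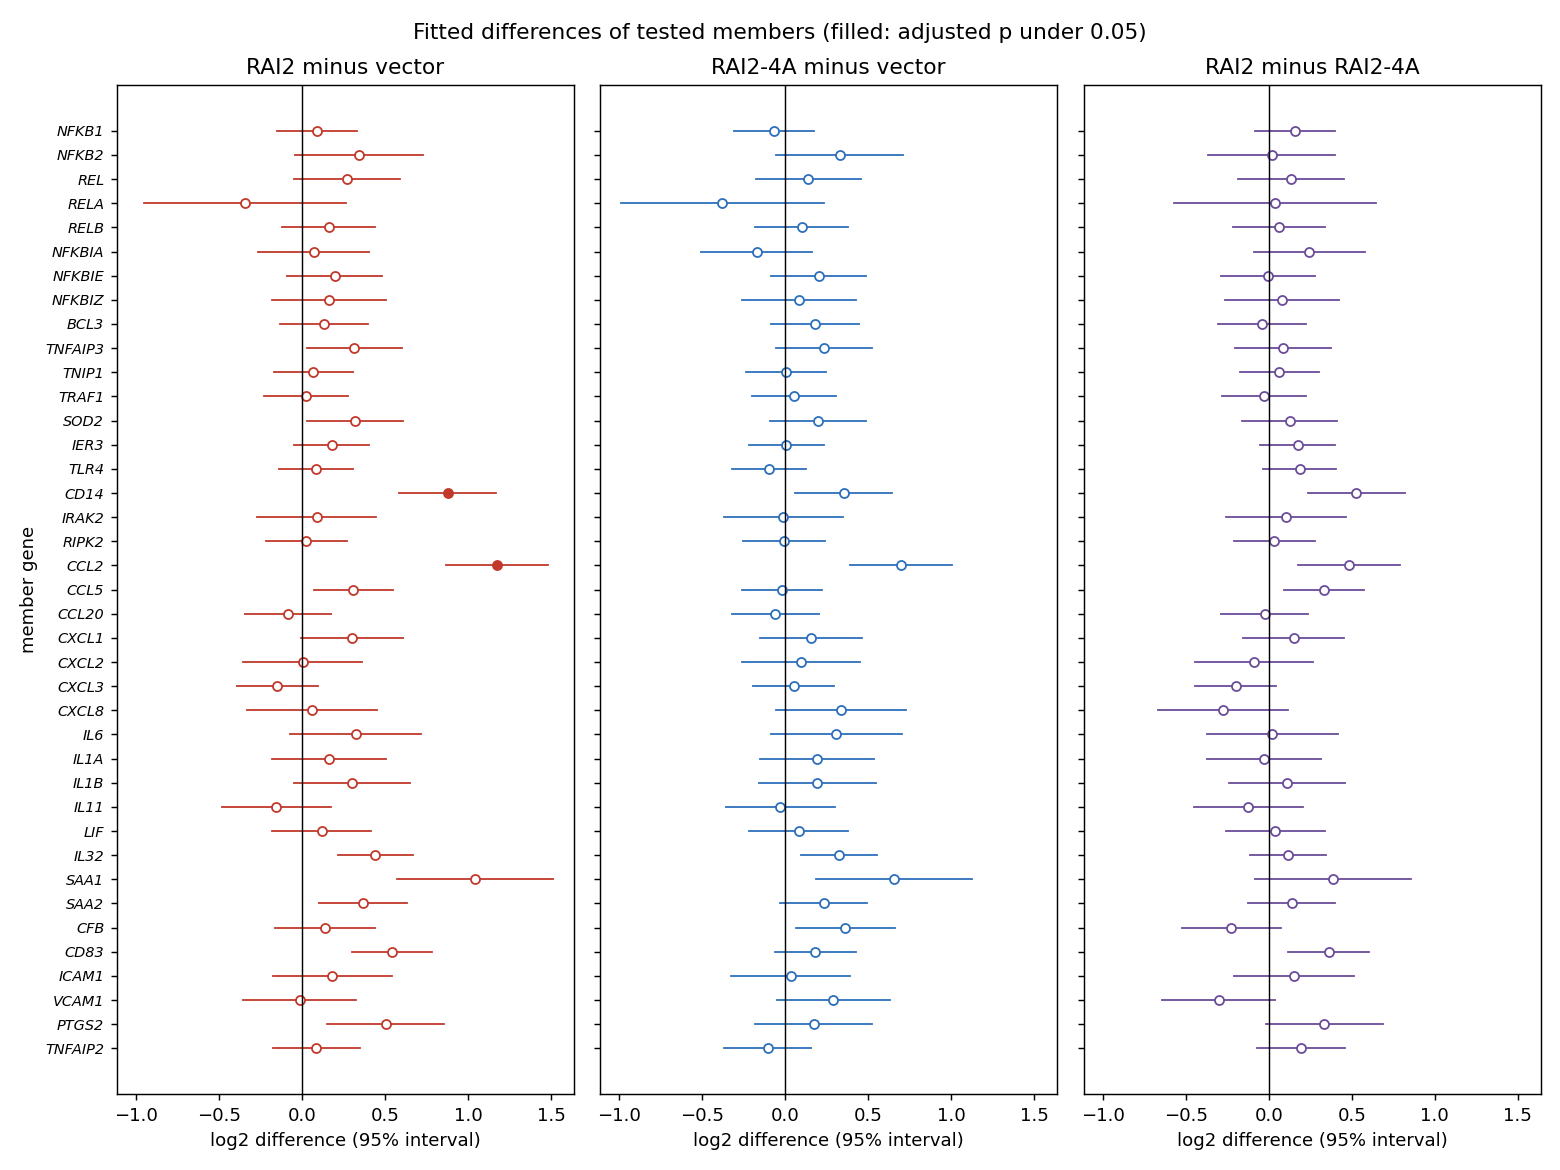
Fitted log2 differences of the 39 tested members with 95% intervals in the 3 comparisons, ordered by role, with filled points where the limma adjusted p was under 0.05. Filled points appear for CCL2 (1.18) and CD14 (0.88) in RAI2 minus vector and nowhere else.

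The second comparison asked how RAI2-4A changed the same genes, and it shares the vector arrays with the first. No member passed in limma, where 0.0884% of all tested genes did (0.0643% upward and 0.0241% downward). At an unadjusted p under 0.05 there were 5 members, CCL2, IL32, SAA1, CFB and CD14, all higher in RAI2-4A (12.8% of those tested against 4% of all genes, or 2.43% counting higher ones). The arrays did not overlap, with RAI2-4A higher, for CCL2, IL32 and CFB, or 7.69% of tested members against 4.86% of all genes, and 3.13% of all genes did not overlap with RAI2-4A lower. The difference was above 0 for 29 members (74.4%) against 56% of all genes. The median difference was 0.14 over tested members and 0.02 over all tested genes, with a range of -0.38 to 0.70. Here too CCL2, IL32 and IL1B, with no vector array above background, could differ from vector only upward. These counts describe the members that passed the filter and support nothing further.

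CCL2 had a fitted difference of 0.70 with RAI2-4A (SE 0.14, limma adjusted p = 0.171, 95% interval 0.39 to 1.00), or at least 1.36-fold over the limit that vector sets. Its limma adjusted p was 0.0178 with array weights, 0.0385 with a robust trended variance and 0.0442 once the 3 arrays noted as standing apart were removed. In the other 19 of 22 alternatives CCL2 did not pass. Its adjusted p in limma was 0.798 without RAI2-4A replicate 1, where the difference was 0.56, and 0.712 without vector replicate 2. The RAI2-4A difference was 0.66 for SAA1, 0.35 for CD14, 0.33 for IL32 (at least 1.13-fold on this probe), 0.18 for CD83 and -0.02 for CCL5. Without RAI2-4A replicate 1 the difference was 0.41 for SAA1 and 0.21 for CFB. RAI2-4A replicate 1 was the highest of its group for CCL2, SAA1, CFB, CD14 and IL32, the members named above for their unadjusted p.

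**Figure D4:**
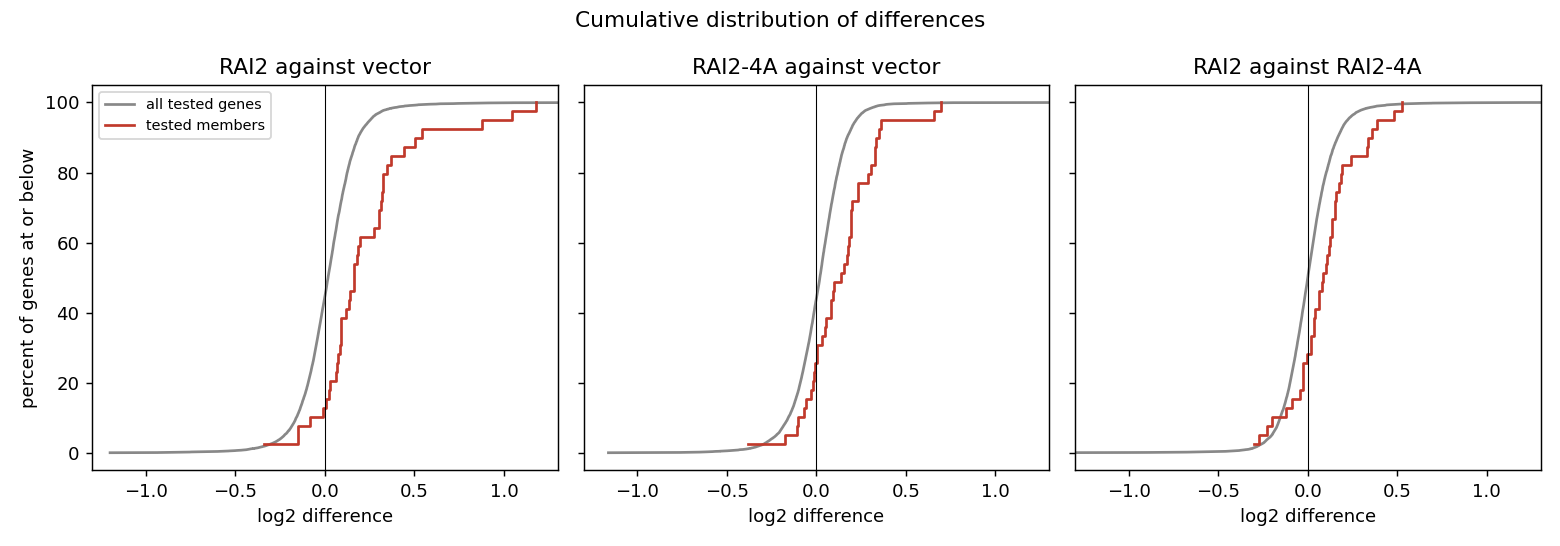
Percent of genes at or below each log2 difference, for all 12438 tested genes (grey) and the 39 tested members (red), in the 3 comparisons. The member curves lie to the right of the curves of all genes over most of their length, with medians of 0.16 against 0.02 for RAI2 and 0.14 against 0.02 for RAI2-4A.

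The third comparison set RAI2 against RAI2-4A directly. It uses the same RAI2 and RAI2-4A arrays as the comparisons with vector, so a member that recurs here is not independent evidence. No member passed in limma, and 0.378% of all tested genes did, 47 in number (0.193% higher and 0.185% lower in RAI2). With the replicate number as a block over these 2 groups, an alternative chosen after seeing the data, 98 genes and again 0 members passed. At an unadjusted p under 0.05 there were 4 members, all higher in RAI2 (10.3% against 4.82% of all genes, or 2.63% counting higher ones), namely CD14, CCL2, CD83 and CCL5. The arrays did not overlap with RAI2 higher for 6 members (15.4% against 5.8%), and with RAI2 lower for CXCL3 alone (5.51% of all genes). CXCL3 and VCAM1 passed the filter with no RAI2 array above background, so their differences from RAI2-4A could only be downward. The CXCL3 difference of -0.20 (95% interval -0.44 to 0.04) did not pass, and its group means differed by at least 1.06-fold. The difference was above 0 for 28 members (71.8%) against 50.1% of all genes. Again the counts describe the members that passed the filter and support nothing further.

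The difference of RAI2 minus RAI2-4A was 0.53 for CD14 (95% interval 0.24 to 0.82, limma adjusted p = 0.222). It was 0.48 for CCL2 (95% interval 0.17 to 0.79, limma adjusted p = 0.415). For CD83 it was 0.36 (95% interval 0.12 to 0.60) and for CCL5 0.33 (95% interval 0.09 to 0.57). These intervals were not adjusted for the number of genes, so the data do not settle whether the 2 forms differ in these genes. SAA1 differed by 0.38 with an interval of -0.09 to 0.86 that spans 0, and CFB by -0.22 with an interval of -0.52 to 0.08.

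The members also varied with the array inside the groups. The highest of the 9 arrays was RAI2 replicate 1 or RAI2-4A replicate 1 for 20 of the 39 tested members (51.3%), against 27.3% of all tested genes. These arrays were picked after seeing the data. A difference between groups also moves the highest array, so this share does not measure variation inside groups alone. Vector replicate 3 was the highest for 0 members, against 13.1% of all genes. In both RAI2 and RAI2-4A, replicate 1 lay above the mean of replicates 2 and 3 for 26 members (66.7%), against 35.3% of all genes. The median deviation of the members from the vector mean was 0.27, 0.10 and 0.11 on the RAI2 arrays and 0.20, -0.01 and 0.10 on the RAI2-4A arrays, with -0.07, 0.02 and 0.00 on the vector arrays. IL6 shows the pattern, as its replicate 1 values of 570 with RAI2 and 696 with RAI2-4A stand above all other arrays. With both arrays numbered 1 left out, a choice made after seeing the data, CCL2 still passed in RAI2 against vector and CD14 did not (adjusted p = 0.116 in limma).

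**Figure D5:**
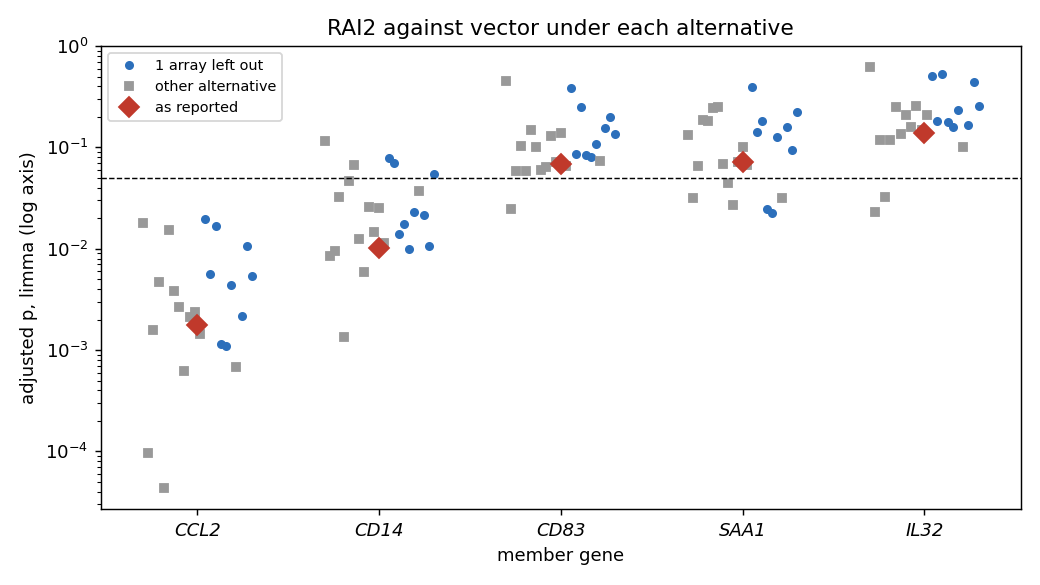
Limma adjusted p (log axis) for RAI2 against vector of CCL2, CD14, CD83, SAA1 and IL32 as reported (diamonds), with 1 array left out (circles) and under the other alternatives (squares). The dashed line is 0.05. Every CCL2 point lies below it, CD14 lies on both sides, and CD83, SAA1 and IL32 lie mostly above.

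The differences of tested members are given next by whether the NF-kB decamer was found in the promoter window. In RAI2 against vector the median difference was 0.14 over 14 members with a match, 0.13 over 16 without and 0.20 over the 9 that had no promoter in the table, and the highest values were 0.44, 0.88 and 1.18. In RAI2-4A against vector the medians were 0.15, 0.11 and 0.10, and in RAI2 against RAI2-4A they were 0.05, 0.11 and 0.14. CD14 and CD83 are among those with no decamer in the window, and CCL2 among those with no promoter in the table.

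Outside the members, 46 signalling components of the pathway were listed, among them the kinase complex, adaptors and receptors, and 40 were tested. None passed in any comparison in limma, and at an unadjusted p under 0.05 there were 2 with RAI2 (5.9% of all genes), 0 with RAI2-4A (4%) and 1 between the 2 forms (4.82%). Of 50 other NF-kB-inducible genes, 35 were tested. In RAI2 against vector 1 of them rose, 0 fell, and 10 had an unadjusted p under 0.05, 9 of these higher, beside 5.9% of all genes. The gene that rose was IL24, a cytokine of the IL10 family, with intensities of 154, 182 and 192 on the vector arrays, 354, 275 and 266 on the RAI2 arrays and 246, 206 and 272 on the RAI2-4A arrays. RAI2 and vector did not overlap, and IL24 rose by 0.84 (SE 0.15, limma adjusted p = 0.0300). The call ended in 11 of 23 alternatives, where its limma adjusted p reached 0.268, among them each RAI2 or vector replicate left out in turn (0.0553 to 0.170). In RAI2-4A against vector 0 of these genes passed in limma and 6 had an unadjusted p under 0.05, beside 4% of all genes, with IL24 at 0.51 (adjusted p = 0.815).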

How the data were processed

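RNA of MDA-MB231 cells (vector, RAI2, RAI2-4A) was hybridised to 9 bead arrays, 3 per group. Per the labels' protocols, puromycin was given at 2 µg/ml from 24 h after transduction for 4 days, and cRNA was made from 500 ng of RNA. The authors deposited linear intensity values for 47323 probes. BeadStudio and limma are named, without versions, in the submitters' processing notes, and the deposited medians (98.5 to 99.5) were taken to show earlier between-array normalization, whose method is not given in the sources used here. Another 18 columns (9 signals, 9 detection p) were left out because their names fit no one sample's labels.

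Background was corrected with limma's normexp (offset 50), then log2 was taken. A probe was above background when its log2 intensity exceeded the array's mode by 1.645 SD (density bandwidth 0.03). Probes passing this on 3 or more of the 9 arrays were kept (22400), those with a missing value (3) left out, and each gene was represented by its brightest probe. The probe table names 1 gene for 30111 probes, several for 8 and none for 17201. Of these, 30072 were found in the RefSeq genes of GRCh38.p14, which changed 0 symbols. One model over 9 arrays (limma 3.58.1, R 4.3.3) gave 3 two-sided contrasts, adjusted by Benjamini-Hochberg over 12438 genes. It was also run on simulated data with independent noise on each array, unlike the arrays here, whose residuals correlate. No result rests on that run. Precision is limited by the 3 arrays per group. Lower bounds on folds, from log2 of the deposited intensities unless stated, use the higher of the dim probe and the lowest signal above background. They compare group means and do not take in the spread between arrays.

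Members and lists were chosen with earlier results of these data known. Per-array values are given for members past the threshold, for up to 12 further members with an unadjusted p under 0.05 and no overlap against vector, and for each role's brightest member. Other members are described by their differences and, where single arrays or groups set a result, by those values, chosen after seeing them. Residuals of same-numbered RAI2 and RAI2-4A arrays correlated at 0.444, 0.437 and 0.23, so these numbers were taken to pair the 2 groups, a reading of the data that the labels do not state. Between these 2 groups, unlike-numbered arrays correlated at -0.383 to -0.0259. Residuals from group means cancel within a group for each gene. Positive values for like numbers therefore bring negative ones for unlike numbers, which are no second support for pairing. Residuals of the vector arrays did not pair by number with either group. Some unlike-numbered arrays correlated more highly, vector replicate 1 with RAI2-4A replicate 2 at 0.538 and vector replicate 2 with RAI2-4A replicate 3 at 0.47. The pairing is therefore uncertain. Alternatives varied the array weights, the replicate block, the filter, the normalization, the background step, the variance model, the choice of probes and the arrays left out.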

Additional observations from a re-analysis of the deposited data

How the results depend on the processing

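Counts of members passing in RAI2 against vector (2 as reported) moved to 5 with array weights (adding CD83, SAA1 and IL32), to 1 when probes of a gene were averaged (CCL2), to 1 with the stricter filter (CD14, as CCL2 was not kept and 27 members were tested), and to 1 with both arrays numbered 1 left out (CCL2). A count of 3 came from setting the background at the mode (adding IL32), with no filter, with only the groups compared and without the 3 arrays that stood apart (adding SAA1 in each). Leaving out 1 array at a time gave 1 to 3, as SAA1 was added without RAI2-4A replicate 1 or 2. In RAI2-4A against vector (0 as reported) the count was 1, CCL2, with array weights, with a robust trended variance and without the 3 arrays that stood apart, and 0 with each array left out. In RAI2 against RAI2-4A it was 0 in all 24 alternatives. CCL2 kept its call in RAI2 against vector in the 22 alternatives that could test it (0.97 to 2.20, limma adjusted p 4.33e-05 to 0.0196). The replicate block changed no member's call (2, 0 and 0 members passing) and ended that of IL24 (adjusted p = 0.0714 in limma). The other pathway genes passing in RAI2 against vector (1 as reported, IL24) numbered 0 with the replicate block, with the background at the mode, with probes averaged or tested singly and without both arrays numbered 1, 2 with only the groups compared (adding TNFSF10), and 0 to 2 with 1 array left out. In the other comparisons they numbered 0 throughout. Over all genes, RAI2 against vector gave 88 calls with array weights, 33 with the mean of probes, 12 without both arrays numbered 1 and 21 to 56 with 1 array left out, against 52. For the other alternatives the all-gene counts are not given here, so changes in their member counts are not read as particular to the members. RAI2-4A against vector gave 25, 17 and 17 in the 3 alternatives that called CCL2, 7 with only the groups compared or every probe tested on its own, 6 with the stricter filter, 5 without both arrays numbered 1 and 5 to 11 with 1 array left out, against 11. RAI2 against RAI2-4A gave 79 with array weights, 98 with a block over these 2 groups, 25 with the stricter filter, 11 without both arrays numbered 1 and 30 to 77 with 1 array left out, against 47. Of the 39 tested members, 13 differences turned sign in at least 1 alternative in RAI2 against vector, 15 in RAI2-4A against vector and 18 in RAI2 against RAI2-4A. That of RELA, -0.34 with RAI2 and -0.38 with RAI2-4A, was 0.035 with array weights for RAI2, 0.22 and 0.091 without the 3 arrays that stood apart, and -0.59 to 0.13 and -0.63 to 0.093 with 1 array left out. CXCL8 in RAI2 against vector was -0.019 with array weights, -0.032 without both arrays numbered 1 and -0.13 to 0.21 with 1 array left out. Without both arrays numbered 1, NFKB1 was -0.0013 and RIPK2 -0.0021. With 1 array left out, NFKB1 ran from -0.0013 to 0.17, NFKBIA from -0.034 to 0.21, RIPK2 from -0.036 to 0.092, and CCL5 in RAI2-4A against vector from -0.091 to 0.067. The cause of these changes was not tested. Member medians ran from 0.11 to 0.24 in RAI2 against vector, 0.08 to 0.20 in RAI2-4A against vector and 0.03 to 0.16 in RAI2 against RAI2-4A. Each moved by less than the pooled replicate SD of 0.0929. The median in RAI2 against RAI2-4A, 0.08 as reported, is itself below that SD, so this measure could not have shown its loss. A slide block was not run, for lack of slide labels in the files used. Dim probes such as those of CCL2, SAA2 and IL32 lie near background, which limits the precision of their fold.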

Other observations

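LY96 and TNFSF10, from the lists of other pathway genes, are given here after their values were seen. LY96, the coreceptor that binds lipopolysaccharide together with TLR4 and acts with CD14, read 269, 344 and 309 on the vector arrays, 444, 431 and 408 on the RAI2 arrays and 355, 274 and 343 on the RAI2-4A arrays. The RAI2 arrays lay above all others, and the difference from vector was 0.52 (SE 0.13, limma adjusted p = 0.187). TNFSF10, the death ligand also known as TRAIL, read 181, 222 and 213 with vector, 529, 371 and 329 with RAI2 and 531, 232 and 285 with RAI2-4A. Neither overexpressing group overlapped vector, and the difference for RAI2 was 1.05 (SE 0.27, limma adjusted p = 0.179).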
